A study of Homo sapiens with 39 samples.

Results

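Hepatocyte nuclear factor 4 alpha (HNF4A) isoforms 10 and 11 differ, by the standard isoform nomenclature, by an insertion of 10 amino acids that only isoform 11 carries. The members of the comparison were the 6 libraries of the 2 HCT116 lines that produce these isoforms, 3 of each, out of 39 libraries in the whole series. HCT116 is a human colorectal cancer line. Each line was 1 stable derivative of a Flp-In T-REx host, in which a construct enters at a prepared genomic site, and carried 1 HNF4A isoform with GFP at the C-terminus, switched on by doxycycline. Parental cells with no construct formed another group of 3 libraries and give the background level of each gene. All groups, the parental cells included, received 2.5 µg/ml doxycycline for 48 h without selection antibiotics. Until induction, parental cells were kept in blasticidin and zeocin and the isoform lines in blasticidin and hygromycin B. No line expressed GFP alone. Because each isoform is represented by 1 line, the insertion and any other difference between the 2 lines cannot be told apart. The labels do not say whether the 3 libraries of a line came from separate cultures. The p-values of the gene tests rest on the spread between libraries of a line, pooled over all 39 libraries. That spread may be technical.

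HNF4A is a nuclear receptor that binds DNA as a homodimer and drives genes of hepatocytes and of the intestinal epithelium. Transcription from a pair of promoters (P1 and P2) and alternative splicing give isoforms with different N- and C-termini, and isoforms 7 to 12 are the P2 forms. The insertion lies in the C-terminal F domain, a region of the receptor that modulates how coregulators act on the ligand-binding domain. The comparison asks what differs between cells that make an otherwise identical isoform with and without it.

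The inserted stretch was read from the annotated HNF4A transcripts (GENCODE v29, GRCh38), because it is the sequence that sets the 2 lines apart. It is coding sequence at the 3′ end of exon 9, on the plus strand at chr20:44428458-44428487, and HNF4A itself spans 44355700 to 44434596 of chromosome 20. The 2 forms are shown with 30 bases on each side, 5′ to 3′, and the capitals mark the 30 inserted bases, which add 10 codons without shifting the frame. The constructs' own sequences were not used here.
With the insertion: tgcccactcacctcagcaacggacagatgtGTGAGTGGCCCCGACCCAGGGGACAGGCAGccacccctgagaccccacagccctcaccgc
Without the insertion: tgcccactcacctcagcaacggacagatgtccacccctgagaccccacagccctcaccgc

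The targeted gene was checked first, from 12 rows that the deposited tables name HNF4A1 to HNF4A12. Levels are in TPM, a transcript abundance that corrects for length and is scaled to the same total in every library. The summed HNF4A level was 644, 627 and 713 TPM in the isoform 10 line and 615, 616 and 610 TPM in the isoform 11 line. All 6 libraries lay far above the parental cells, at 31.5 TPM ± 0.589 (SD, n = 3). The row of isoform 10 held 643, 623 and 710 TPM in the isoform 10 line and 0.15, 0.405 and 0.25 TPM in the isoform 11 line. The row of isoform 11 held 614, 614 and 609 TPM in the isoform 11 line and 0.964, 2.19 and 0.567 TPM in the other. Each line therefore matched its label. Total HNF4A was lower in the isoform 11 line by 47.5 TPM, and the exact two-sided permutation test gave p = 0.1, the smallest that 3 against 3 libraries allow. With median-of-ratios scaling the difference was -28 TPM and the exact permutation p was 0.5, and without replicate 3 of isoform 10, the library at 713 TPM, it was -21.8 TPM.

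The 6 libraries resembled each other closely. Across the tested genes, Pearson correlations of log2(TPM + 1) were between 0.991 and 0.9929 within a line and between 0.9884 and 0.9906 between the lines. The median difference of all tested genes, isoform 11 minus isoform 10, was -0.03. Read depth is unknown from TPM. Between 28253 and 29030 rows were above 0 TPM per library. The 10 epithelial markers, which the labelled colorectal cells should express, had summed levels of 3290 to 3390 TPM in isoform 10, 4330 to 4610 TPM in isoform 11 and 3340 to 3490 TPM in the parental cells. The 11 markers of immune, stromal, endothelial, hepatic and neuroendocrine cells summed to 32.9 to 34.5 TPM in isoform 10, 31.8 to 33.9 TPM in isoform 11 and 20.8 to 23.3 TPM in the parental cells. CD3E and DCN were listed at 0 in 5 of the 6 libraries each and below 0.03 TPM in the other. Most of the sum was CD68, at 14.5 to 17.6 TPM in the 6 libraries and 3.1 to 4.44 TPM in the parental ones, and COL1A1, at 9.2 to 13.8 TPM in all 9.

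At a Benjamini-Hochberg adjusted p under 0.05 in limma and an absolute log2 difference of at least 1, 30 of 15002 tested genes were called between the 2 lines, which is 0.2% of them. Of these, 22 were lower in isoform 11 (0.147%) and 8 were higher (0.0533%). All log2 differences are on the log2(TPM + 1) scale, which understates the change of genes with low levels. At the adjusted p alone, 2013 genes differed (13.4%), with 1335 lower (8.9%) and 678 higher (4.52%). The 3 libraries of one line lay entirely beyond those of the other for 29 of the 30 called genes, against 31.8% of all tested genes. With each of the 6 libraries left out in turn, 20 of the 30 calls were kept every time, 16 lower and 4 higher. With a filter of 5 TPM in place of 1 TPM, 11 genes were called, 5 higher and 6 lower. Most of the 30, 22 genes, are annotated as protein-coding.

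**Figure D1:**
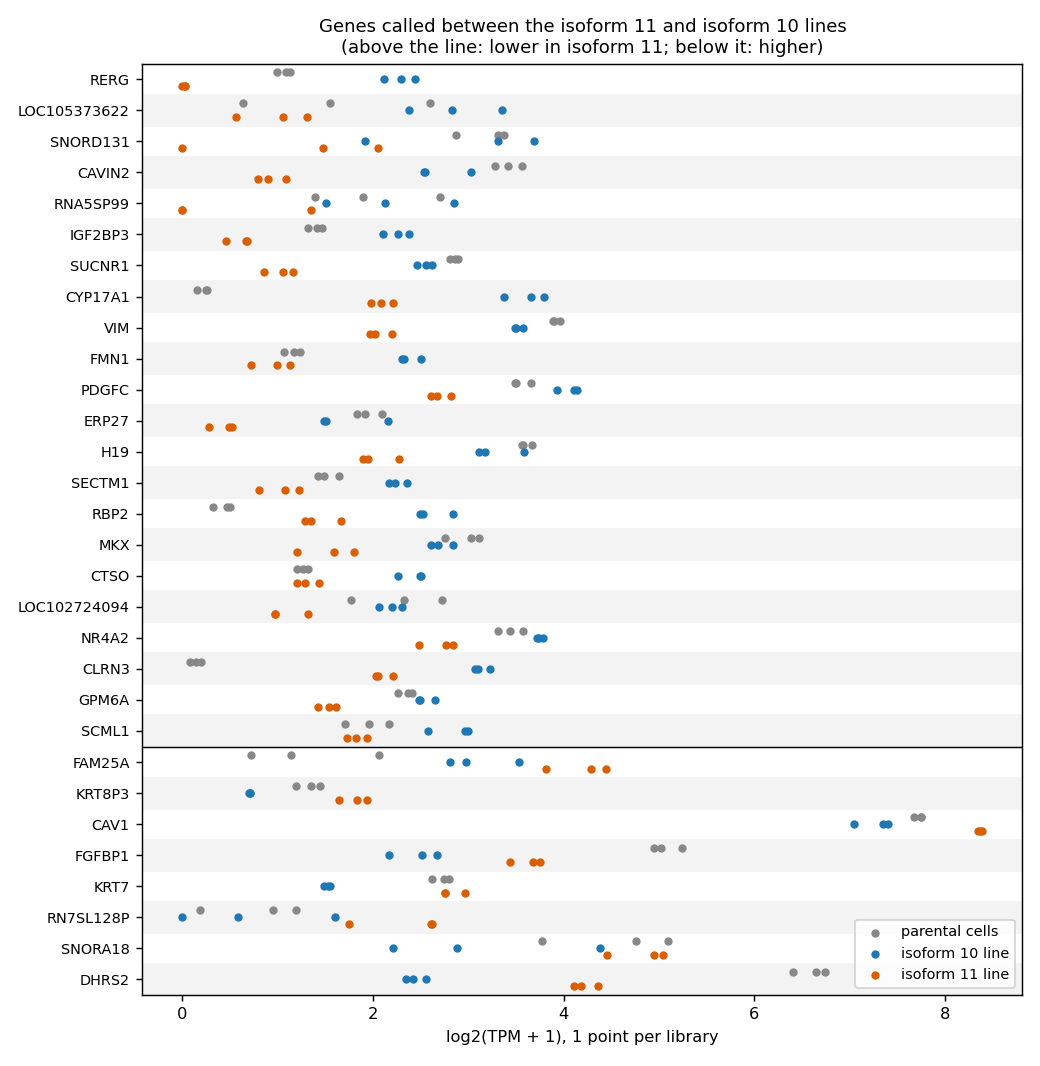
Level of each of the 30 called genes as log2(TPM + 1) on the horizontal axis, with 1 point per library and 3 libraries for the parental cells (grey), the isoform 10 line (blue) and the isoform 11 line (orange). The 22 genes above the horizontal line are lower in isoform 11 and the 8 below it are higher, and only for SNORD131 do the points of the 2 lines overlap.

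RERG, a small GTPase of the Ras superfamily described as an oestrogen-regulated growth inhibitor, had the largest difference of all called genes. Its level was 4.42, 3.89 and 3.32 TPM in isoform 10 and 0.0213, 0 and 0.0187 TPM in isoform 11, with 1.1 TPM ± 0.105 (SD, n = 3) in the parental cells. RERG (chromosome 12, 15107783 to 15348675, GRCh38) fell by 2.26 ± 0.098 (SE) on the log2 scale, with a limma adjusted p of 3.36e-16. The isoform 10 libraries lay above the parental ones and the isoform 11 libraries below them. IGF2BP3, an mRNA-binding protein of fetal and tumour cells, had the same order: 3.8, 4.21 and 3.3 TPM in isoform 10, 0.375, 0.595 and 0.59 TPM in isoform 11, and 1.63 TPM ± 0.128 (SD, n = 3) in the parental cells. Its difference was -1.65 ± 0.0869 (SE), limma adjusted p 3.73e-14. PDGFC, a growth factor of the platelet-derived family, stood at 16.6, 16.2 and 14.2 TPM in isoform 10, 6.05, 5.39 and 5.09 TPM in isoform 11 and 10.7 TPM ± 0.77 in the parental cells (difference -1.36 ± 0.116, SE). For these genes the parental level lay between those of the 2 lines, with no overlap among the 9 libraries.

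A second set stood near or below the parental level in isoform 10 and well below it in isoform 11. VIM encodes vimentin, the intermediate filament protein typical of mesenchymal cells. Its level was 10.2, 10.3 and 10.9 TPM in isoform 10, 2.9, 3.05 and 3.58 TPM in isoform 11 and 14.1 TPM ± 0.461 (SD, n = 3) in the parental cells. VIM (chromosome 10, 17228259 to 17237593) fell by 1.46 ± 0.218 (SE) between the lines, limma adjusted p 1.65e-05. CAVIN2, a coat protein of caveolae, the small invaginations of the plasma membrane, was at 4.8, 4.85 and 7.18 TPM in isoform 10 and 0.867, 0.729 and 1.13 TPM in isoform 11, against 9.71 TPM ± 1.03 in the parental cells. It fell by 1.78 ± 0.17 (SE), limma adjusted p 1.07e-08, and all 6 libraries lay below the parental ones. SUCNR1, the G-protein-coupled receptor for succinate, had 5.14, 4.49 and 4.9 TPM in isoform 10, 1.08, 1.23 and 0.812 TPM in isoform 11 and 6.24 TPM ± 0.213 in the parental cells (difference -1.52). The imprinted non-coding RNA H19 had 11, 8.05 and 7.64 TPM in isoform 10 and 3.84, 2.87 and 2.72 TPM in isoform 11, with 11.1 TPM ± 0.484 in the parental cells (difference -1.25). IGF2, the imprinted growth factor gene next to H19, also fell, by 0.72, from 7.34 to 4.06 TPM. ERP27, a non-catalytic protein of the endoplasmic reticulum, fell by 1.28, from 2.36 TPM ± 0.942 (SD, n = 3) to 0.353 TPM ± 0.119. Its replicate 3 in isoform 10 was higher, at 3.45 TPM, than the others at 1.84 and 1.8 TPM. ERP27 and RERG start within 1 Mb of each other on chromosome 12, where the median difference of the 9 tested neighbours of RERG was 0.02.

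Another set was far above the parental level in isoform 10 and lower, but still above it, in isoform 11. CYP17A1, a steroid hydroxylase and lyase of the adrenal and gonads, had 11.6, 9.38 and 12.9 TPM in isoform 10 and 3.61, 3.24 and 2.93 TPM in isoform 11, and 0.113 to 0.191 TPM in the parental cells. The difference between the lines was -1.52 ± 0.171 (SE), limma adjusted p 1.73e-07, with no overlap among the 9 libraries. RBP2 and CLRN3 are named here after their values were seen, because they show the same order. RBP2, the retinol-binding protein of enterocytes, had 6.14, 4.63 and 4.75 TPM in isoform 10, 1.54, 2.16 and 1.43 TPM in isoform 11 and 0.35 TPM ± 0.0855 in the parental cells (difference -1.19). CLRN3, a membrane protein of the clarin family, had 8.36, 7.57 and 7.41 TPM in isoform 10, 3.63, 3.14 and 3.1 TPM in isoform 11 and 0.0987 TPM ± 0.0426 in the parental cells (difference -1.03). The call of CLRN3 was among the 10 that did not hold in every fit with 1 library left out. FMN1, a formin that nucleates actin filaments, and SECTM1, a secreted and transmembrane protein, stood above all parental libraries in isoform 10 and within or below their range in isoform 11. FMN1 had 4.01, 3.93 and 4.67 TPM in isoform 10, 1.18, 0.987 and 0.645 TPM in isoform 11 and 1.23 TPM ± 0.138 in the parental cells (difference -1.43). SECTM1 had 4.12, 3.68 and 3.48 TPM, then 0.75, 1.34 and 1.11 TPM, and 1.87 TPM ± 0.22 in the same order (difference -1.21). LOC105373622, an uncharacterised locus, fell by 1.88 ± 0.44 (SE), from 6.52 TPM ± 2.55 to 1.01 TPM ± 0.503. Its parental libraries, at 1.93, 5.06 and 0.548 TPM, overlapped those of both lines.

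Among the 8 genes called higher in isoform 11, DHRS2, a short-chain dehydrogenase and reductase, had the largest difference. DHRS2 had 4.34, 4.08 and 4.88 TPM in isoform 10, 16.3, 17.2 and 19.6 TPM in isoform 11 and 83.9, 99.3 and 106 TPM in the parental cells. DHRS2 (chromosome 14, 23630115 to 23645639) rose by 1.78 ± 0.407 (SE), limma adjusted p 0.00279, and both lines stayed below the parental level. The SE is pooled over all lines of the series. The SD of DHRS2 was 28.9 TPM in the isoform 3 line, against 0.41 TPM in isoform 10 and 1.72 TPM in isoform 11. FGFBP1, a secreted carrier of fibroblast growth factors, had 4.73, 5.39 and 3.5 TPM in isoform 10, 12.5, 11.8 and 9.85 TPM in isoform 11 and 32.8 TPM ± 3.62 in the parental cells (difference 1.17 ± 0.219). KRT7, a keratin of simple epithelia, had 1.8, 1.92 and 1.89 TPM in isoform 10, 6.83, 5.74 and 5.74 TPM in isoform 11 and 5.6 TPM ± 0.406 in the parental cells. Its difference was 1.30 ± 0.119 (SE), limma adjusted p 5.04e-09, and the isoform 10 libraries stood alone below the other 6. KRT8P3, a processed pseudogene of keratin 8, rose by 1.10, from 0.632 to 2.51 TPM. Reads of KRT8 and its pseudogenes can be split between them, so this value is uncertain, and KRT8 itself rose by 0.52. CAV1, the principal coat protein of caveolae, had 169, 163 and 131 TPM in isoform 10, 325, 331 and 336 TPM in isoform 11 and 211 TPM ± 5.77 in the parental cells. CAV1 (chromosome 7, 116524785 to 116561184) rose by 1.10 ± 0.0711 (SE), limma adjusted p 5.53e-12. Without replicate 3 of isoform 10 its difference was 0.99, just under the minimum for a call.

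The other called genes are given more briefly. RNA5SP99, SNORD131, SNORA18 and RN7SL128P, named here after their values were seen, are short RNA genes or their pseudogenes in libraries enriched for poly(A). SNORA18 was at 6.37, 19.8 and 3.62 TPM in isoform 10 and 32.1, 20.9 and 29.9 TPM in isoform 11, and the calls of all 4 were lost without 1 library or another. The remaining 7 genes are also named with their values known. FAM25A rose by 1.08, and MKX (-1.18), CTSO (-1.11), LOC102724094 (-1.10), NR4A2 (-1.06), GPM6A (-1.02) and SCML1 (-1.01) fell. NR4A2 encodes an orphan nuclear receptor, and its libraries were at 12.4, 12.2 and 12.8 TPM in isoform 10 and 6.17, 5.78 and 4.59 TPM in isoform 11. In the authors' deposited tables, each with its own comparison against the parental cells, all 30 genes had log2 fold changes in the same order as here, for example 1.5 for RERG in isoform 10 and -1.93 in isoform 11. These fold changes come from the same libraries, so the shared order is no separate evidence. Some were near 0, as for SNORD131 at -0.01 in isoform 10 and -0.22 in isoform 11.

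Smaller differences are described by 20 gene lists drawn up from general knowledge, of which some had many members past the adjusted p and most had few. Counts are of members at an adjusted p under 0.05 in limma, to be read against 4.52% of all tested genes higher and 8.9% lower.

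Epithelial markers stood together. Of the 9 tested, 8 were higher in isoform 11 and none lower, and the median difference was 0.30 against -0.03 over all tested genes. KRT8 and KRT18, the partner keratins of simple epithelia, were among them. KRT18 had 653, 660 and 685 TPM in isoform 10, 951, 1000 and 1050 TPM in isoform 11 and 828 TPM ± 34 in the parental cells (difference 0.59 ± 0.054, limma adjusted p 5.17e-09). KRT8 had 1160, 1160 and 1200 TPM, then 1630, 1690 and 1720 TPM, with 1330 TPM ± 27.4 in the parental cells (difference 0.52). CDH1, which encodes the adhesion protein E-cadherin, had 26.2, 25.6 and 28.5 TPM in isoform 10, 39.8, 42.7 and 38.5 TPM in isoform 11 and 31 TPM ± 1.96 in the parental cells (difference 0.57). For KRT18, KRT8 and CDH1 the parental level lay between the lines. KRT19 and CLDN7, also epithelial markers, were above the parental cells in both lines. KRT19 had 417 to 429 TPM in the parental cells, 614 to 645 TPM in isoform 10 and 746 to 767 TPM in isoform 11. Over the epithelial markers, the median difference from the parental cells was -0.11 in isoform 10 and 0.34 in isoform 11. CLDN4, a tight-junction claudin, rose by 0.33 and EPCAM by 0.30. ELF3 was the tested marker that did not pass, with a difference of 0.21. Among junction components and keratins, a list that holds some of the same genes, 11 of 26 were higher and 1 lower, with a median of 0.06. KRT80, whose gene lies near KRT7, rose by 0.92, from 8.01 to 16.1 TPM. DSC2, a desmosomal cadherin, fell by 0.65, from 26.1 to 16.3 TPM.

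Caveolar, matricellular and mesenchymal genes split. Of 18 tested, 5 were higher and 6 lower in isoform 11, and the median was 0.01. Within the caveolar genes, CAV1 and its neighbour and partner CAV2 rose, CAV2 by 0.87 from 83.1 to 152 TPM, while the coat protein gene CAVIN2 fell by 1.78. The other cavins of the list overlapped between the lines. CAVIN1 had 75.6, 73.3 and 75.3 TPM in isoform 10 and 74.2, 73 and 69.9 TPM in isoform 11. CAVIN3 had 12.8, 11.7 and 11.5 TPM, then 11.6, 11.5 and 13.6 TPM. CTGF, a matricellular protein, rose by 0.85, from 7.43 TPM ± 1.4 (SD, n = 3) to 14.2 TPM ± 2.08, and AXL, a receptor tyrosine kinase, by 0.45. Vimentin fell together with FN1 (fibronectin, -0.57), LOXL2 (a lysyl oxidase of the matrix, -0.50), THBS1 (thrombospondin, -0.44) and ITGA5 (an integrin subunit, -0.30).

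Cholesterol synthesis was the list with most members in 1 direction. Of 22 tested genes, 16 were higher in isoform 11 and none lower, and the median difference was 0.26. Early mevalonate steps were included: HMGCS1, which makes HMG-CoA, had 138, 143 and 109 TPM in isoform 10 and 191, 211 and 174 TPM in isoform 11 (difference 0.56 ± 0.1, limma adjusted p 0.000173). MVD, which makes isopentenyl diphosphate, had 150, 152 and 133 TPM and then 215, 223 and 209 TPM (difference 0.57 ± 0.0587, limma adjusted p 3.99e-08). MVK, mevalonate kinase, rose by 0.40. FDFT1, squalene synthase, rose by 0.35, from 407 to 518 TPM. INSIG1, an endoplasmic reticulum protein that restrains the pathway, rose by 0.42. The parental level of MVD was 159 TPM ± 7.04 and that of HMGCS1 153 TPM ± 16.9, between the means of the 2 lines in both cases. MVK stood instead at 48.3 TPM in the parental cells, below isoform 10 at 52 TPM and isoform 11 at 68.9 TPM. Over the list, the median difference from the parental cells was 0.02 in isoform 10 and 0.33 in isoform 11. Replicate 3 of isoform 10 was the lowest of its line for MVD, HMGCS1 and FDFT1, and without it 14 of the 22 passed. MSMO1, a sterol methyl oxidase and one of the 6 members that did not pass, had a difference of -0.32 ± 0.126 (SE), adjusted p 0.0928 in limma. Its gene lies near the end of chromosome 4, in a stretch described further on.

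Targets of p53 were lower where they moved, with 1 exception: 12 of 24 tested were lower in isoform 11 and 1 higher, with a median of -0.26. CDKN1A, the p21 inhibitor of cyclin-dependent kinases, had 233, 217 and 230 TPM in isoform 10, 170, 167 and 169 TPM in isoform 11 and 104 TPM in the parental cells (difference -0.42 ± 0.0855, limma adjusted p 0.000824). For CDKN1A both lines therefore lay above the parental cells. TP53INP1 fell by 0.57, BTG2 by 0.48 and SESN1 by 0.43. Their means in isoform 11, in that order, were 16.3, 24.1 and 14.1 TPM. The parental means were higher, at 19.6, 25.8 and 18.4 TPM, with overlapping libraries for BTG2. Over the list, the median difference from the parental cells was 0.08 in isoform 10 and -0.18 in isoform 11. PLK3, a stress-induced kinase, was the member that rose, by 0.38.

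Wnt/beta-catenin targets were lower where they passed, 9 of 15 tested and none higher, with a median of -0.30. SOX4, a transcription factor of progenitor cells, had 111, 105 and 103 TPM in isoform 10, 64.4, 69.1 and 58.9 TPM in isoform 11 and 206 TPM in the parental cells (difference -0.72 ± 0.0792, limma adjusted p 1.14e-07). NOTUM, an extracellular Wnt inhibitor, had 11.3, 9.81 and 10.3 TPM and then 6.33, 6.61 and 6.51 TPM (difference -0.61). The feedback inhibitors NKD1 and AXIN2 fell by 0.46 and 0.43, and CCND1, cyclin D1, by 0.34. The count depended on the processing: 5 members passed when only the 6 libraries of these lines were fitted and 4 passed with a filter of 5 TPM, where the median was -0.11.

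Growth factor and guidance genes were divided, with 2 of 26 higher and 7 lower. The ligands FGF19 (-0.89), NRG1 (-0.74) and IGF2 (-0.72) fell. NRP1, a co-receptor for semaphorins and vascular growth factors, rose by 0.78, from 7.31 to 13.3 TPM. In the brush border list 2 of 10 were higher and 4 lower. The peptidases moved apart: ANPEP (aminopeptidase N) rose by 0.95, from 3.94 to 8.46 TPM with 0.158 TPM in the parental cells, and DPP4 fell by 0.72, from 6.58 to 3.61 TPM. Interferon-stimulated genes gave 2 higher and 5 lower of 20, with OAS1 up by 0.93 and OAS3 up by 0.57, both of the oligoadenylate synthetase family. OASL, a related gene, fell by 0.41, from 2.11 to 1.35 TPM, and IFITM1 by 0.58. Drug metabolism and conjugation genes gave 3 higher and 5 lower of 18. SULT1A1, a phenol sulfotransferase, fell by 0.80, from 26.4 to 14.7 TPM, the parental level being 14.8 TPM.

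HNF4A targets of liver and gut gave no member that passed in limma, of 5 tested among 21 in the list. At an unadjusted p under 0.05 there was 1, F10 (coagulation factor X, -0.34 ± 0.143, SE), and 1 passed the adjusted p when only the 6 libraries of these lines were fitted. The other 16 did not reach a mean of 1 TPM over the 39 libraries. VIL1 (villin) was at 6.37 TPM in isoform 10 and 6.4 TPM in isoform 11, a difference of 0.01 ± 0.165 (SE), with 0.554 TPM in the parental cells. LGALS4 (galectin 4) was at 4.12 and 3.17 TPM, a difference of -0.30 ± 0.169 (SE), with 0.137 TPM in the parental cells. Both genes stood far above the parental level in both lines. APOA1 was also above the parental libraries in both lines, at 1.13 TPM or less. MTTP overlapped the parental libraries in both lines. F10 had 8.6 to 9.59 TPM in the parental cells, 9.23 to 10.1 TPM in isoform 10 and 7.07 to 7.48 TPM in isoform 11. Among DNA replication genes 1 of 26 was higher, and among mitosis genes 2 of 25, with none lower in either list. Fatty acid oxidation (3 of 22 lower), lipid droplets (2 of 19 lower), cytokines (1 of 11 lower), coregulators (1 of 20 lower) and the ATF4 and unfolded protein response (1 higher and 4 lower of 27) gave few members. Of gut and liver lineage factors, 1 of 16 was higher (KLF4, 0.35) and 3 lower, among them GATA6 (-0.61). Of the 4 tested markers of other cell types, PECAM1 was higher, by 0.43.

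**Figure D2:**
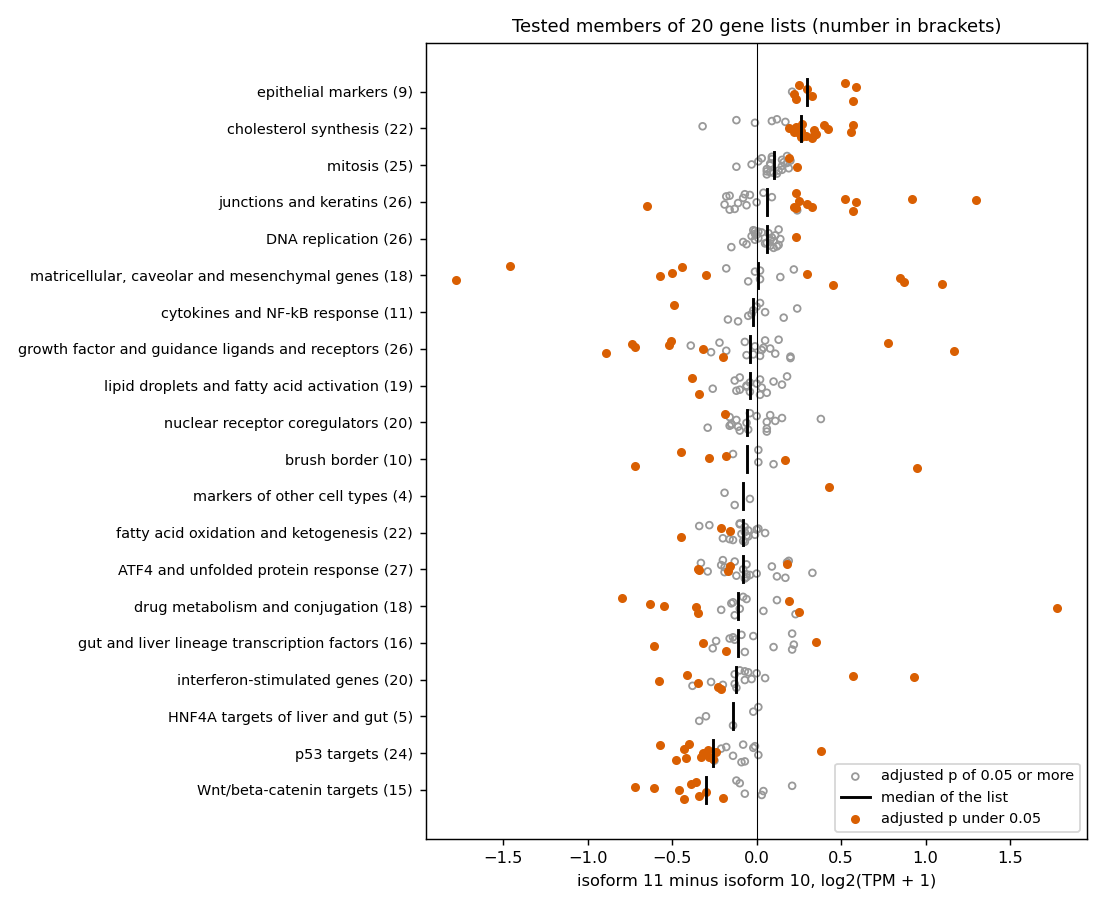
Difference of each tested member of the 20 gene lists, isoform 11 minus isoform 10 on the log2(TPM + 1) scale, with members that pass the adjusted p in orange, the others as open circles and the list's median as a black bar. Epithelial markers and cholesterol synthesis have medians of 0.30 and 0.26, and Wnt/beta-catenin and p53 targets have medians of -0.30 and -0.26.

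The same insertion separates 3 other pairs of lines, isoforms 2 and 1, 8 and 7, and 5 and 4, which share no library with isoforms 10 and 11. Differences in these pairs are always given as the isoform with the insertion minus the one without it. Summed HNF4A averaged 782 TPM in isoform 1 and 614 TPM in isoform 2. It averaged 733 and 734 TPM in isoforms 7 and 8, and 856 and 852 TPM in isoforms 4 and 5. In isoforms 10 and 11 it averaged 661 and 614 TPM. Whether the HNF4A level bears on the differences between pairs was not tested. Across the 15002 tested genes, the difference of isoform 11 minus 10 had a Pearson correlation of -0.05 with that of 2 minus 1, -0.30 with 8 minus 7 and -0.18 with 5 minus 4, as a description over genes that are not independent. Of the 22 genes lower in isoform 11, 3 were called lower in isoform 2 than in 1 (RERG, IGF2BP3 and NR4A2), where 0.24% of all tested genes were, and 1 was called higher (FMN1, 2.24), where 0.107% were. In isoform 8 against 7, none of the 22 was called lower, where 0.0533% of all tested genes were, and 7 were called higher, where 0.173% were. Isoform 5 against 4 gave the same numbers, 0 lower (0.06% of all tested genes) and 7 higher (0.293%). The genes called higher in both of these pairs were RERG, CAVIN2, IGF2BP3 and VIM.

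Levels across all lines show the pattern for these genes. RERG averaged 3.88 TPM in the line of isoform 10, 7.37 TPM with isoform 12, 7.63 TPM with isoform 5 and 3.32 TPM with isoform 8, and 1.45 TPM or less in each of the other 8 lines. The insertion pairs therefore ran in both directions: it went from 1.45 to 0.031 TPM between isoforms 1 and 2, but from 0.485 to 3.32 TPM between 7 and 8 and from 0.187 to 7.63 TPM between 4 and 5. VIM went from 2.66 to 18.5 TPM between isoforms 7 and 8, from 2.46 to 8.15 TPM between 4 and 5 and from 3.69 to 6.11 TPM between 1 and 2, so isoforms 10 and 11 were the pair with the lower level in the insertion form. CYP17A1 was highest in isoforms 1 (23.8 TPM) and 2 (18.7 TPM), followed by isoform 10, and its difference was -0.32 ± 0.171 (SE) in that pair and 0.94 in isoform 8 against 7. RBP2 fell in isoform 2 against 1 as well, by 0.70, and CLRN3 by 0.81, while both differed by -0.14 to 0.03 in the other 2 pairs. In isoforms 4 and 5 both were near the floor, RBP2 at 0.245 and 0.211 TPM and CLRN3 at 0.317 and 0.298 TPM. A fall could therefore hardly be seen in that pair. Of the genes higher in isoform 11, KRT7 fell by 1.59 between isoforms 1 and 2, by 0.81 between 7 and 8 and by 0.37 between 4 and 5. DHRS2 rose by 2.01 in isoform 5 against 4, where the levels were 200 and 49 TPM.

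**Figure D3:**
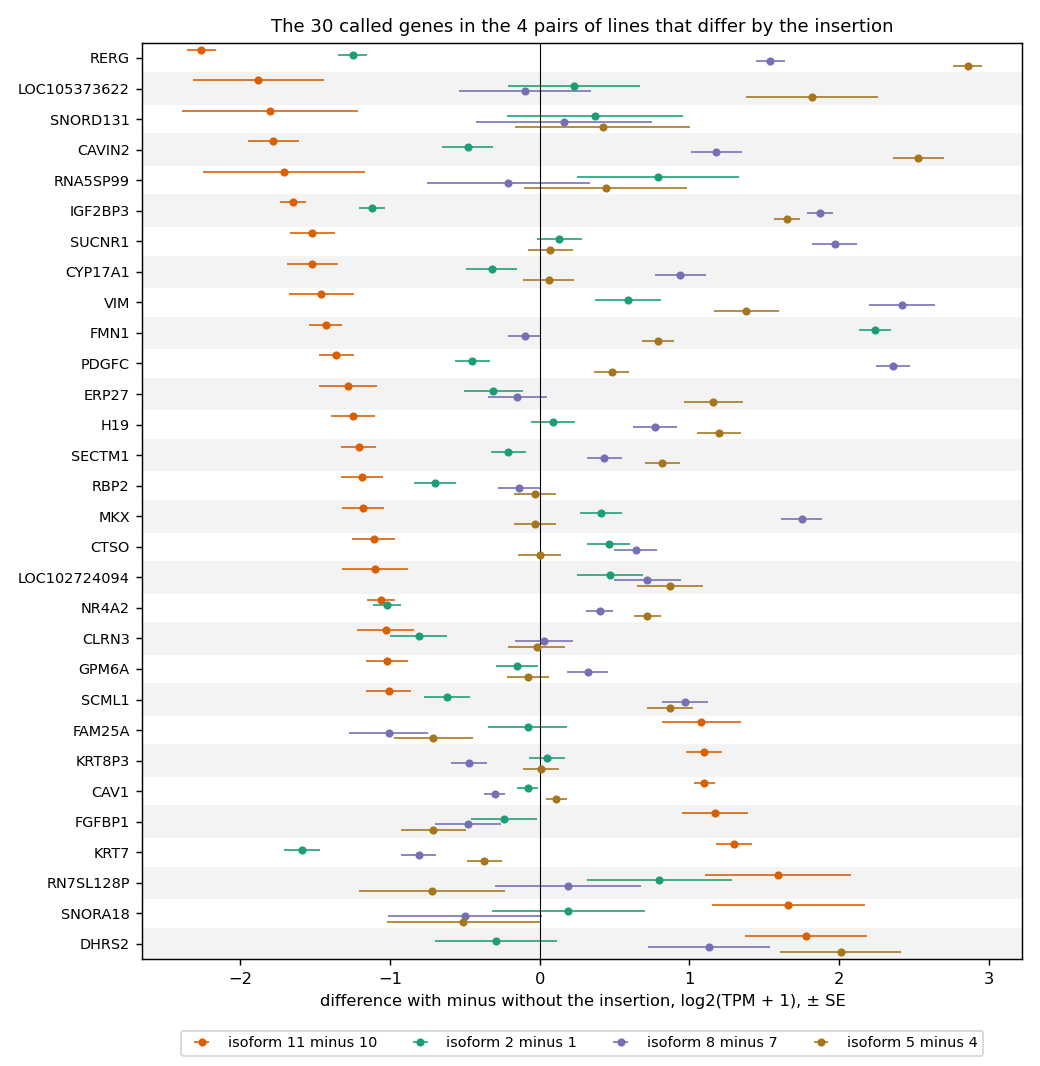
Difference with minus without the insertion, on the log2(TPM + 1) scale with its SE, for the 30 called genes in the 4 pairs of lines. RERG, CAVIN2, IGF2BP3 and VIM lie to the left in isoform 11 minus 10 (orange) and to the right in 8 minus 7 and 5 minus 4 (violet and brown).

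The difference between pairs was tested itself, as an interaction in the same fit. Against the isoform 1/2 pair, 152 genes differed (54 higher and 98 lower in the 10/11 pair, 1.01% of those tested). Against the 7/8 pair 231 did (34 higher, 197 lower, 1.54%), and against the 4/5 pair 175 did (27 higher, 148 lower, 1.17%). With median-of-ratios scaling the split against the 4/5 pair was 46 higher and 114 lower. By direction, the shares were 0.36% higher and 0.653% lower against the 1/2 pair, 0.227% and 1.31% against the 7/8 pair, and 0.18% and 0.987% against the 4/5 pair. Of the 22 genes called lower in isoform 11, 13, 20 and 19 were among these, and of the 8 called higher, 6 in each case. That is a description, since the 30 were chosen by one of the differences that enter. NR4A2 did not pass between the 10/11 and 1/2 pairs (-0.04 ± 0.129, SE, adjusted p 0.871 in limma). DHRS2 did not pass against the 4/5 pair (-0.23 ± 0.575, SE, adjusted p 0.84 in limma).

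The gene groups were compared between the pairs in the same way. In the interaction test at the adjusted p alone, 6.12% of all tested genes were higher and 11.7% lower against the 1/2 pair, 5.43% and 16.8% against the 7/8 pair, and 3.89% and 12.4% against the 4/5 pair. The epithelial markers, with 8 of 9 higher in isoform 11, had 8 of 9 lower in isoform 2 against 1 (median -0.41), 5 lower in 8 against 7 (median -0.22) and 3 lower in 5 against 4 (median -0.07), and none higher. In the interaction test 9, 9 and 8 of them passed with a higher difference in the 10/11 pair. Cholesterol synthesis genes were lower for 17 of 22 in isoform 5 against 4 (median -0.37) and for 1 and 2 of 22 in the 1/2 and 7/8 pairs, again with none higher, and 14, 15 and 16 passed the interaction with a higher difference in the 10/11 pair. Background shares at the adjusted p were 6.97% lower and 10.5% higher in the 1/2 pair, 3.32% and 11.1% in the 7/8 pair, and 2.12% and 7.95% in the 4/5 pair. Wnt/beta-catenin targets were higher for 5, 7 and 6 of 15 and lower for 1 in each of these pairs, and 8, 10 and 11 passed the interaction with a lower difference in the 10/11 pair. For p53 targets the medians were -0.07, 0.05 and 0.16. In isoform 2 against 1 none of the 24 was higher and 6 were lower, the same direction as in the 10/11 pair, in 8 against 7 there were 2 higher and 2 lower, and in 5 against 4 there were 8 higher and 1 lower. In the interaction test 5, 10 and 15 passed with a lower difference in the 10/11 pair and 3, 2 and 1 with a higher one. Because the pairs were made from 8 lines, 1 per isoform, a difference between pairs and a difference between single lines cannot be told apart.

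**Figure D4:**
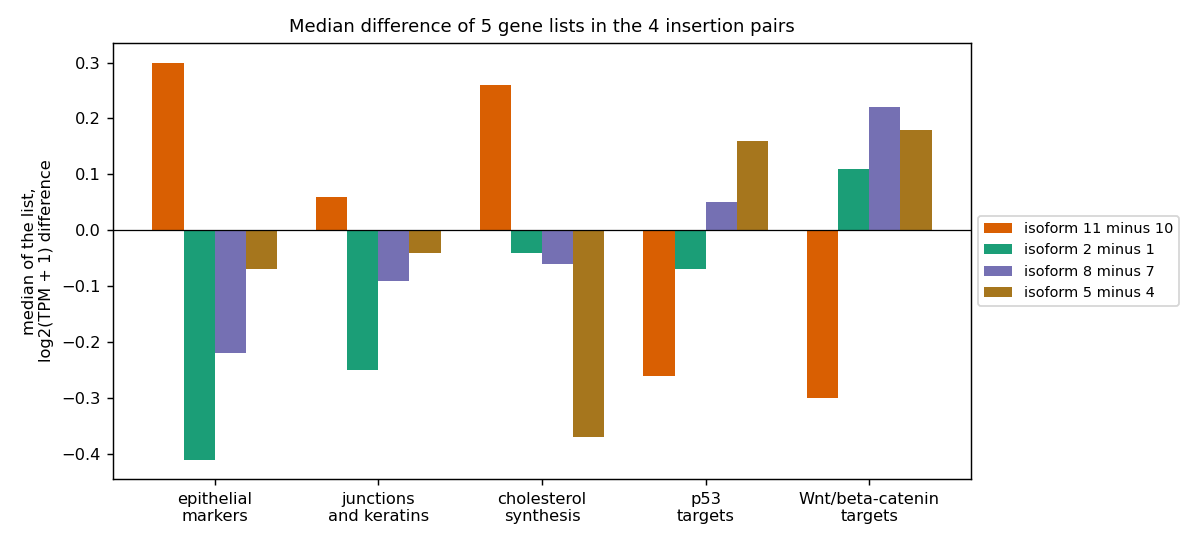
Median difference, with minus without the insertion on the log2(TPM + 1) scale, of 5 gene lists in the 4 pairs of lines, as bars from 0. The epithelial and cholesterol bars are above 0 for isoform 11 minus 10 (0.30 and 0.26) and below 0 in the other 3 pairs, and the Wnt/beta-catenin bars run the opposite way.

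The differences were not spread evenly over the genome. On chromosome 4, 185 of 467 tested genes passed the adjusted p (39.6%), against 12.6% of all other rows. The median difference was 0.32 over the 111 tested genes that start in the first 30 Mb of the chromosome, of which 73 were higher and 3 lower. It was -0.52 over the 77 genes from 150 Mb on, of which 62 were lower and none higher, and -0.09 over the 279 genes between. These limits were set after the values were seen, in windows of 10 Mb, so the stretches are a description with no test. Among windows with at least 10 genes, 6 of 18 on chromosome 4 had a median beyond 0.3 in either direction, and 0 of 270 on the other chromosomes did, where medians ran from -0.28 to 0.12.

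**Figure D5:**
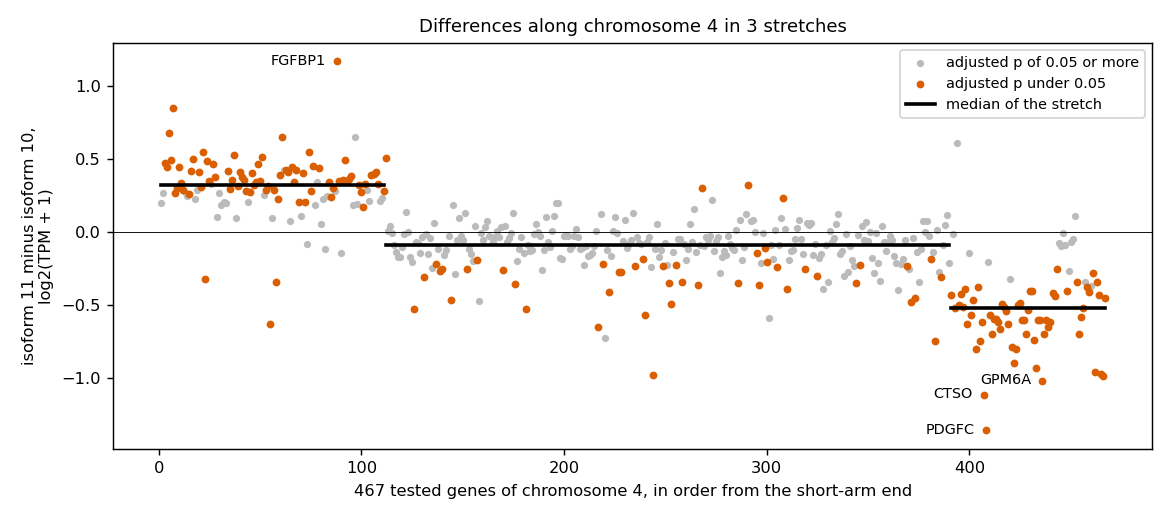
Difference of isoform 11 minus isoform 10, on the log2(TPM + 1) scale, for the 467 tested genes of chromosome 4 in order from the short-arm end, with genes that pass the adjusted p in orange and the median of each of 3 stretches as a black line. The medians step from 0.32 to -0.09 and to -0.52, and the 4 called genes of the chromosome are labelled.

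Against the parental cells, and after subtracting the median of all tested genes, the first stretch stood at -0.34 to -0.32 in the 3 libraries of isoform 10 and at 0.01 to 0.02 in those of isoform 11. The last stretch stood at 0.37 to 0.38 in isoform 10 and at -0.17 to -0.05 in isoform 11. Isoform 10 thus departed from the parental cells in both stretches, by nearly equal amounts in its 3 libraries. Other lines did so too. Isoforms 2, 4, 5 and 6 had between -0.34 and -0.26 in the first stretch and between 0.31 and 0.42 in the last, and isoform 7 had 0.11 to 0.16 and -0.39 to -0.32. Isoform 8 was near the parental cells, at -0.02 to -0.01 and -0.02 to 0.07. In the other insertion pairs the medians of the 2 stretches were -0.17 and 0.24 for isoform 2 minus 1, -0.11 and 0.45 for 8 minus 7, and 0.09 and 0.04 for 5 minus 4. The cause of these steps was not tested.

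All 4 called genes of chromosome 4 lie in these stretches: FGFBP1 (15935569 to 15938740) in the first, and CTSO, PDGFC (156760454 to 156971394) and GPM6A in the last. Relative to the median of their stretch, FGFBP1 stood at 0.85, PDGFC at -0.84, CTSO at -0.60 and GPM6A at -0.50. Without the genes of chromosome 4, an alternative chosen after seeing the data, 26 genes were called, 7 higher and 19 lower, and 16 cholesterol synthesis genes, 8 epithelial markers, 13 p53 targets and 9 Wnt/beta-catenin targets passed the adjusted p, the same numbers as with them. The only cholesterol synthesis gene tested on chromosome 4 was MSMO1, which did not pass, and no epithelial marker lies there. For those lists the counts could change only through the adjustment, so they do not show whether lists and stretches are linked.

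The 250 bases upstream of annotated starts were searched for HNF4-type sites on both strands, in the RefSeq promoter table (GRCh38.p14), which held 18 of the 30 called genes with 24 starts. CAAAGTCCA, the consensus, was in none of the 24 and in 0.325% of all 35116 promoters. The looser CAAAGNNCA, which includes it, was in 4 of 18 starts of the genes lower in isoform 11 (22.2%), in 0 of 6 of those higher, in 4.44% of all promoters and in 3.34% of those of tested genes. It was in 2.85% of the starts of all genes lower at the adjusted p and in 3.86% of those higher. A match is a description of letters and not a bound site. RBP2 and CLRN3 are shown because they are 2 of the 4 with a match, and were raised over the parental cells in both lines and lower in isoform 11. Each run is 250 bases on the minus strand of the chromosome, 5′ to 3′, ending at the base before the start, with the match in capitals. The RBP2 run is chr3:139476517-139476766 and its match is on the opposite strand of the run. That of CLRN3 is chr10:127892942-127893191.
RBP2: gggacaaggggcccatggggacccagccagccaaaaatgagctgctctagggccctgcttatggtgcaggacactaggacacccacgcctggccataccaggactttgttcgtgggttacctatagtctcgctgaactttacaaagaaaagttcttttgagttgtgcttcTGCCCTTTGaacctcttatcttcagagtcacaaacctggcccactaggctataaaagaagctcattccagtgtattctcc
CLRN3: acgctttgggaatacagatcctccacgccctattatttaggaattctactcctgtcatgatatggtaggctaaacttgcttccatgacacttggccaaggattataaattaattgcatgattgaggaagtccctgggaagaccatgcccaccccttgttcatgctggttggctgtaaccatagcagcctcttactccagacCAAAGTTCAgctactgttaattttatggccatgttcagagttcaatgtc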

How the data were processed

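Poly(A) RNA was made into directional libraries, per the labels' protocols. The authors deposited TPM per library in tables of 45446 rows, with their own log2 fold changes, adjusted p-values and mean normalised signal for each comparison with the parental cells, per the file headers. The submitters' processing notes name Trimmomatic 0.36, FastQC 0.11.5, kallisto 0.44.0, DESeq2 1.22.2 and GRCh38.p12. The transcript annotation is not stated there. No deposited statistic entered a fit, and depth per library is unknown.

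Columns were assigned to groups through the labels. The 12 HNF4A rows were left out of the fits. All 39 libraries (13 groups) entered 1 limma 3.58.1 model (R 4.3.3) on log2(TPM + 1), with eBayes and its mean-variance trend and 26 residual degrees of freedom. Rows with a mean of at least 1 TPM were tested (15002), with Benjamini-Hochberg adjustment over all of them. Interaction contrasts compared the insertion pairs. The script was tested on simulated data. Positions come from GENCODE v29.

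Genes are named by a rule: up to 12 called genes in each direction with the largest differences among those whose libraries did not overlap and whose call held without each library, then list members that were called and up to 4 per list at the adjusted p, and HNF4A. Members and lists were chosen with earlier results of these data known. Further genes were named outside the rule, with their values known. Besides the called genes marked so above, they include CTGF, AXL, FN1, LOXL2, THBS1, ITGA5, EPCAM, FDFT1, PLK3, CCND1, IGF2, VIL1, LGALS4 and F10. Alternatives were another pseudocount, filters, median-of-ratios scaling, fewer libraries, a replicate block and leaving out each library.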

Additional observations from a re-analysis of the deposited data

Results flagged for a closer look

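The differences below are those of the insertion difference in the isoform 10/11 pair minus that in another pair, on the log2(TPM + 1) scale, each past the adjusted p of the limma interaction test with a size of at least 1. They were picked out because the same contrast differed between pairs of lines, and the named genes are those called between isoforms 11 and 10, so the sizes are partly set by that choice.

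Against isoforms 1 and 2, 152 genes differed. Among the called genes the values below 0 were FMN1 (-3.67), RNA5SP99 (-2.50), LOC105373622 (-2.11), VIM (-2.05), SUCNR1 (-1.65), MKX (-1.59), LOC102724094 (-1.57), CTSO (-1.57), H19 (-1.34), CAVIN2 (-1.30), CYP17A1 (-1.20), RERG (-1.01), SECTM1 (-1.01). Above 0 were KRT8P3 (1.05), FAM25A (1.15), CAV1 (1.19), FGFBP1 (1.41), DHRS2 (2.06), KRT7 (2.90). KRT7 and FMN1 stood out here because their differences had opposite signs and were called in both pairs.

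Against isoforms 7 and 8, 231 genes differed. Those below 0 were VIM (-3.87), RERG (-3.80), PDGFC (-3.71), IGF2BP3 (-3.51), SUCNR1 (-3.49), CAVIN2 (-2.96), MKX (-2.94), CYP17A1 (-2.46), H19 (-2.02), SCML1 (-1.98), LOC102724094 (-1.82), LOC105373622 (-1.79), CTSO (-1.75), SECTM1 (-1.64), NR4A2 (-1.45), GPM6A (-1.34), FMN1 (-1.33), ERP27 (-1.13), CLRN3 (-1.06), RBP2 (-1.05). Those above 0 were CAV1 (1.41), KRT8P3 (1.57), FGFBP1 (1.64), FAM25A (2.09), KRT7 (2.11), SNORA18 (2.16).

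Against isoforms 4 and 5, 175 genes differed. Below 0 stood RERG (-5.12), CAVIN2 (-4.30), LOC105373622 (-3.70), IGF2BP3 (-3.30), VIM (-2.84), H19 (-2.46), ERP27 (-2.44), FMN1 (-2.22), SECTM1 (-2.03), LOC102724094 (-1.98), SCML1 (-1.89), PDGFC (-1.84), NR4A2 (-1.78), SUCNR1 (-1.59), CYP17A1 (-1.58), RBP2 (-1.16), MKX (-1.15), CTSO (-1.12), CLRN3 (-1.01). Above 0 stood KRT8P3 (1.09), KRT7 (1.67), FAM25A (1.79), FGFBP1 (1.88), SNORA18 (2.17), RN7SL128P (2.31). CYP17A1, RBP2 and CLRN3 were near the floor in isoforms 4 (0.185, 0.245 and 0.317 TPM) and 5 (0.238, 0.211 and 0.298 TPM). Their values here therefore mostly repeat the difference between isoforms 11 and 10.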

How the results depend on the processing

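The number of genes called between isoforms 11 and 10, 30 in the analysis as reported, was 82 with a pseudocount of 0.1 (18 higher, 64 lower), 11 with a filter of 5 TPM (5 higher, 6 lower) and 2013 with no minimum difference. It was 30 with no filter, 29 with median-of-ratios scaling (9 higher, 20 lower) and 30 to 41 with 1 library of these lines left out. Of the 30 genes as reported, 26 were called with no filter and 27 with that scaling. With 1 library left out, 24 to 27 of them were called. The interaction counts against the 1/2, 7/8 and 4/5 pairs were 276, 429 and 361 with a pseudocount of 0.1, 87, 128 and 74 with a filter of 5 TPM, and 2672, 3338 and 2443 with no minimum difference. With 1 library left out they were 138 to 166, 216 to 239 and 165 to 205. The HNF4A difference was -64.7 to -21.8 TPM with 1 library left out. Without replicate 1 of isoform 3, an alternative added after seeing the data, 31 genes were called. With only the libraries of the groups compared, 30 genes were called, 26 of them among the 30 as reported. With the same limit, 156 and 236 genes differed from the 1/2 and 7/8 pairs. With a replicate block added to that fit these counts were 36 (27 of the 30 among them), 166 and 237. Of the Wnt/beta-catenin targets, 5 passed with those libraries alone and 4 with the block added. For the 4/5 pair no paired analysis was possible because the labels give all 3 samples of each line the same column name, so its columns could not be matched to single samples. Libraries with the same number had correlated deviations of 0.04, 0.05 and 0.05, and all 6 correlated best with their own number, a hint from the data and not the design. Deviations were taken from each line's own mean, so these 6 matches are not independent of each other. Of the named genes' values under all alternatives, 929 kept direction and side of the threshold, 79 fell short of it and none reversed. The naming rule asked for a passing adjusted p or for calls that held without each library. The tally is therefore partly set by that choice. Depth is unknown from TPM, so no limit from counting error can be given.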
